A study of Mus musculus with 9 samples.

Results

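The expression of 44 genes of Toll-like receptor (TLR) and NF-κB signalling was described in unstimulated RAW264.7 macrophages that were wild-type, knock-out or transactivation mutant (ΔTAD) for C/EBPδ. The genes were taken from a list of receptors, adaptors, kinases, NF-κB subunits and feedback inhibitors, and their symbols were matched to the mouse gene identifiers of the count lists. All 44 were among the 55487 identifiers, and 43 of them were among the 14312 genes that passed a filter on low counts and could be tested. The exception was Tlr8, with counts of 0, 1 and 0 in the wild-type, 0, 2 and 0 in the knock-out and 1, 0 and 0 in the ΔTAD libraries.

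RAW264.7 is a mouse macrophage line that grows in culture, and all 9 libraries came from these cells without any stimulus, so that no TLR ligand was added to any group. C/EBPδ, encoded by Cebpd, is a transcription factor that binds DNA as a dimer and activates transcription through an N-terminal transactivation domain. CRISPR/Cas9 with a guide on each side of that domain gave homozygous ΔTAD macrophages, in which the domain is deleted. Clones of the same approach that came out of frame served as homozygous knock-out macrophages. There were 3 libraries of each genotype. The series speaks of 3 independent clones but its labels do not tie a library to a clone, so p-values measure the spread between these libraries.

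TLRs recognise microbial molecules, those of the cell surface mainly lipids and proteins and those of the endosome nucleic acids. Adaptors such as MyD88 and TRIF carry the signal to IRAK kinases and TRAF ubiquitin ligases, which activate the TAK1 and IKK complexes. IKK marks IκB proteins for degradation and thereby sets NF-κB dimers free to enter the nucleus. NF-κB in turn induces several of its own inhibitors, among them IκBα and A20, which end the response. Macrophages express most of these genes before any stimulus.

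Short stretches of promoter are shown first because several of the members with the largest differences are themselves known targets of NF-κB. The sequences before RefSeq start sites on GRCm38.p6 were searched on both strands over 250 bases, with GGGNNNNNCC as a loose κB motif, GGGANNTTCC as a strict κB motif, each match of which is also a match of the loose motif, and TTGCNNAA as a C/EBP motif. The stretch of 150 bases before the start of Nfkbie is the plus strand of chr17:45555550-45555699, and capitals mark its loose κB matches. The stretch of 120 bases before the start of Nfkbia is the minus strand of chr12:55492648-55492767, and capitals mark its strict κB match. For Nfkb2 and Tlr3, 30 bases around each match are shown, with the match in capitals. These lie at chr19:46305695-46305724 on the plus strand for Nfkb2, and on the minus strand at chr8:45410572-45410601 for the strict κB match of Tlr3 and at chr8:45410457-45410486 for its C/EBP match. In the GENCODE annotation, which has other start sites, the stretches of Nfkb2 and Tlr3 lie in an exon of these genes and those of Nfkbie and Nfkbia lie before the gene.
Nfkbie loose κB: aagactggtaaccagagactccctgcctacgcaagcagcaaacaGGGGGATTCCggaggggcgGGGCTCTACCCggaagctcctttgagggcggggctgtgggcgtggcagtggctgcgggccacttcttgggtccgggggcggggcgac
Nfkbia strict κB: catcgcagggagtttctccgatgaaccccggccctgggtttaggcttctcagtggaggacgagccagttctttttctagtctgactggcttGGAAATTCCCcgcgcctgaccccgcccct
Nfkb2 strict κB: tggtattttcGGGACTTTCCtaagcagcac
Tlr3 strict κB: agttgtttctGGGAGTTTCCtgcttttgag
Tlr3 C/EBP: gactttactcaTTTTGCAAagaagataaag

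A RefSeq promoter was at hand for 33 of the 44 members, with 46 start sites. The strict κB motif was found in 1.21% of all 32851 promoters and in 5 of the 46 of the members, namely those of Nfkbia, Tlr3, Map3k7 and 2 start sites of Nfkb2, each with a match of its own. The loose motif was found in 45.8% of all promoters and in 60.9% of those of the members. Of the members that were higher in both edited genotypes 12 of 17 had a loose match, and of the other members 10 of 16. For the strict motif these were 2 of 17 and 2 of 16. The C/EBP motif was found in 9.56% of all promoters and in 8.7% of those of the members, namely of Tlr3, Tlr6, Tlr8 and Map3k7. By member it was found in 1 of the 17 that were higher in both edited genotypes and in 3 of the 16 others. None of the 3 motifs was found before the start of Tlr1, which says only that these letters are not in that window.

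Libraries held 16113306 to 20981829 counts on genes, and 3 counts corresponded to 0.143 to 0.186 CPM (counts of a library scaled to a total of 1000000). ΔTAD replicate 1 stood apart from the other ΔTAD libraries, because 11.0% of its counts fell on 1 gene, CT010467.1, which took 0.303% to 1.16% in the other libraries. Cebpd itself had 70 to 130 counts in every library, with log2 fold changes against wild-type of −0.26 for knock-out and −0.24 for ΔTAD (edgeR adjusted p = 0.0850 and 0.0931), and these counts do not check the genotypes because most of the transcript lies outside the deleted stretch. Markers of macrophages were present, Cd68 and Csf1r among them, with a summed level of 2616 to 2764 CPM over the wild-type, 3629 to 3980 over the knock-out and 6009 to 6163 over the ΔTAD libraries. Lyz2 made up most of that difference, with means of 1167, 2114 and 4192 CPM. Of the 9 macrophage markers Lyz2, Adgre1, Cd68, Ptprc and Spi1 were called higher in both edited genotypes and Fcgr1 lower in both (−1.14 and −0.44 on the log2 scale), Csf1r was called higher in ΔTAD macrophages, Itgam was not called, and Mertk was near 0. Markers of T cells, B cells, mast cells, fibroblasts and epithelium summed to at most 0.288 CPM in every library, those of dendritic cells to 0.979 to 1.87 CPM and those of neutrophils to 0.420 to 1.33 CPM. Markers of endothelium, Pecam1 and Kdr among them, summed to 2.66 to 4.04 CPM over the wild-type, 0.665 to 0.844 over the knock-out and 0.144 to 0.420 over the ΔTAD libraries. The sums for macrophages and endothelium thus moved with the genotype, in opposite directions, and their part in the results that follow was not tested. In bulk RNA, fewer cells of a kind and less RNA per cell cannot be told apart. Genes of chromosome 12 had a median log2 fold change against wild-type of −0.52 for knock-out and −0.54 for ΔTAD, those of chromosome 17 of 0.48 and 0.50, and this touches 4 members.

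To see how the pathway differed between the genotypes, the counts of all genes were fitted with edgeR's quasi-likelihood test, and a gene was called where its p-value, adjusted after Benjamini and Hochberg, was below 0.01. Compared to wild-type macrophages, 24 of the 43 tested members were higher and 5 were lower in knock-out macrophages, where 22.8% of all tested genes were called higher, 22.4% lower and 45.2% in either direction. In ΔTAD macrophages 30 members were higher and 5 were lower, where 26.3% of all genes were called higher, 23.4% lower and 49.7% in either direction. The median log2 fold change of the members was 0.25 for knock-out and 0.39 for ΔTAD, against 0.00 for all genes in both comparisons. Among the calls, 17 members in each of these comparisons, 39.5% of those tested, reached 0.5 on the log2 scale in either direction, as did 19.0% of all genes for knock-out and 22.5% for ΔTAD. Every knock-out library lay above every wild-type library for 27 members and below for 8, where 30.04% and 29.7% of all genes did. For ΔTAD against wild-type macrophages these were 31 and 5 members, and 32.36% and 30.72% of all genes. For knock-out against ΔTAD macrophages they were 9 and 22 members, and 23.17% and 29.61% of all genes. Separate libraries were thus common over all genes.

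Both comparisons use the same 3 wild-type libraries, so a chance deviation of these would appear in both. Higher in both were 23 of the 43 members, where 17.3% of all genes were, and Tlr1, Traf3 and Nfkbia were lower in both, where 15.4% of all genes were. Of the latter Traf3 and Nfkbia lie on chromosome 12 and were no longer called lower when the median of each chromosome was set to 0, which left 3 members lower in each genotype. Myd88 was the only member called in opposite directions, as were 1.26% of all genes. Ikbke was lower and Nfkbiz higher in knock-out macrophages without a call in ΔTAD macrophages, while 8 members were called in ΔTAD macrophages without a call in knock-out macrophages. Over all genes 11.3% were called in knock-out alone and 15.8% in ΔTAD alone. Tlr6, Ly96, Tirap, Tab1, Tab2 and Tbk1 were called in no comparison.

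**Figure D1:**
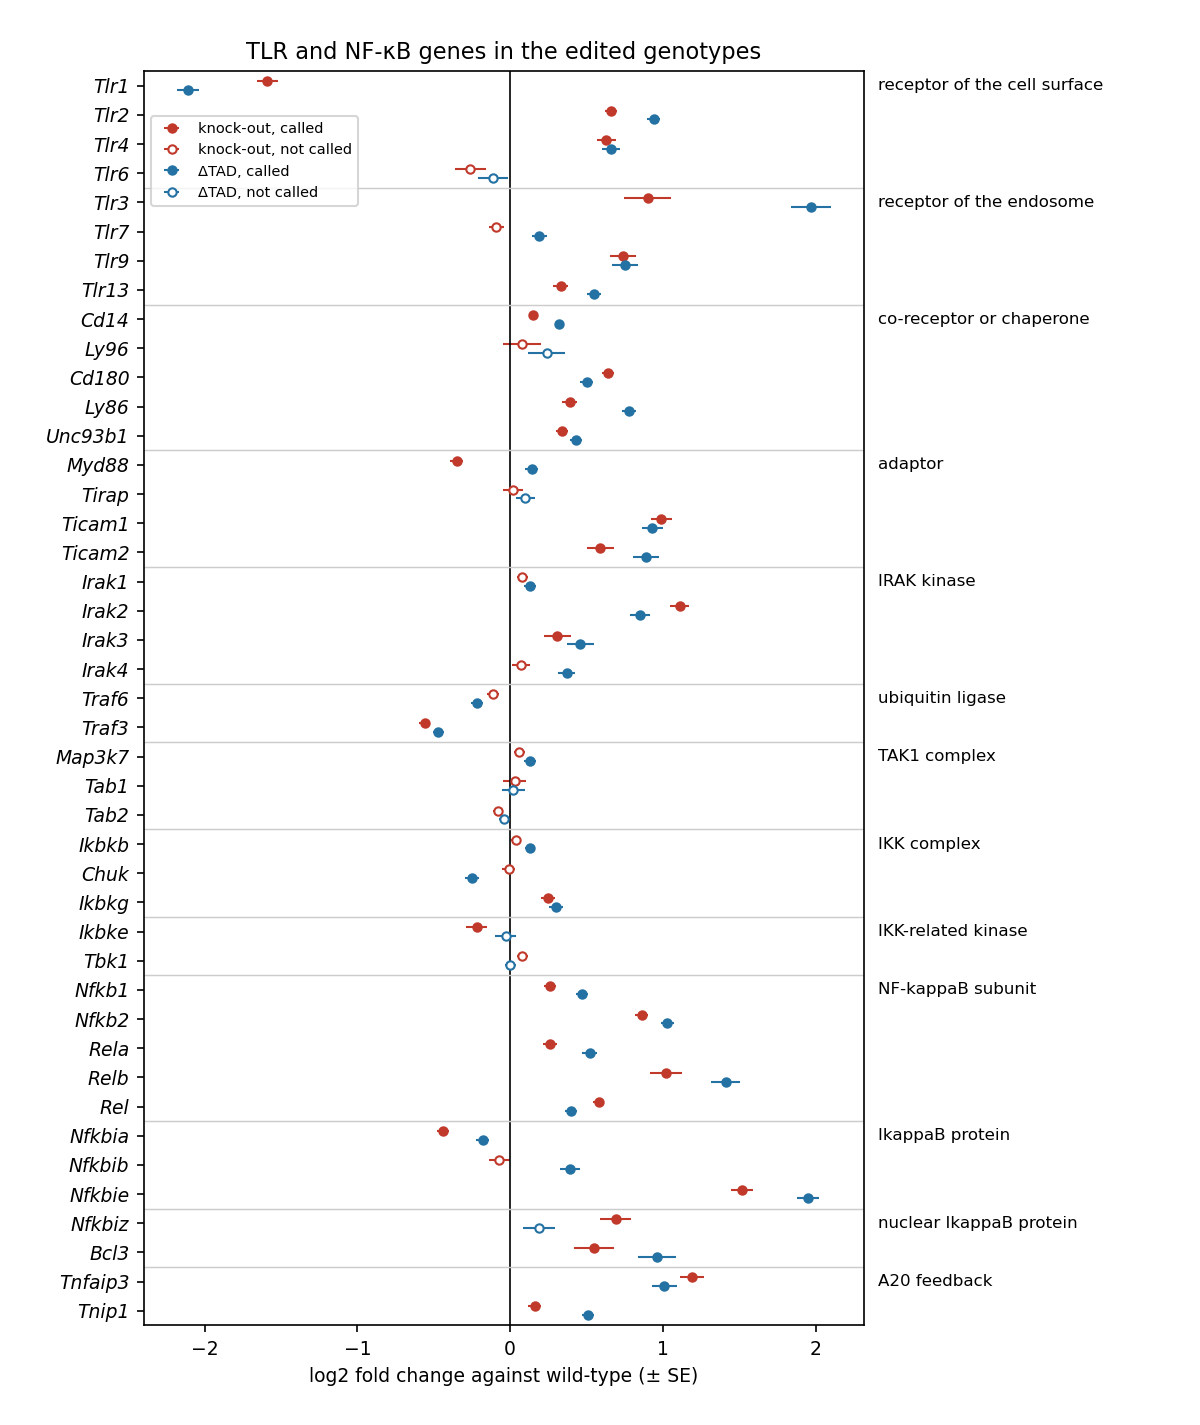
Log2 fold change (x axis, ± SE) of the 43 tested members against wild-type macrophages, grouped by role, in knock-out (red) and ΔTAD (blue) macrophages, with filled points for calls at an adjusted p-value under 0.01. Most filled points lie right of 0, and Tlr1 lies farthest left at −1.59 and −2.11.

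Among the receptors of the cell surface, Tlr1 had the largest decrease of all members. Tlr1, which pairs with TLR2 to bind triacylated lipopeptides, had 40.5, 40.2 and 40.9 CPM in wild-type, 12.9, 13.1 and 14.3 in knock-out and 10.1, 9.80 and 8.52 in ΔTAD macrophages. The 3 genotypes did not overlap, and every knock-out library lay above every ΔTAD library. The log2 fold change was −1.59 ± 0.069 (SE) for knock-out (adjusted p = 7.71e-16) and −2.11 ± 0.073 for ΔTAD (7.53e-18), and knock-out macrophages exceeded ΔTAD macrophages by 0.51 ± 0.086 (3.90e-05). Tlr6, the neighbouring gene and close relative that pairs with TLR2 to bind diacylated lipopeptides, had 9.93 to 12.3 CPM in wild-type, 8.82 to 10.1 in knock-out and 9.79 to 11.04 in ΔTAD macrophages. Its log2 fold changes of −0.26 and −0.11 were not called (0.0334 and 0.353), although without wild-type replicate 3 the one in knock-out macrophages was (−0.34, 0.00608). Since Tlr1 and Tlr6 are similar in sequence and the reads were 50 bases long, reads shared by both may have been set aside as not uniquely aligned.

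Tlr2 and Tlr4 went the other way. Tlr2, the shared partner of TLR1 and TLR6, had 115, 127 and 121 CPM in wild-type, 189, 188 and 197 in knock-out and 240, 237 and 219 in ΔTAD macrophages. Every ΔTAD library was above every knock-out library and these above every wild-type library, with folds of 1.58 in knock-out (adjusted p = 1.28e-12) and 1.92 in ΔTAD macrophages (1.23e-15). Tlr4, the receptor of lipopolysaccharide, had 62.0, 73.0 and 71.9 CPM in wild-type, 102.4, 112.5 and 105.6 in knock-out and 122, 108 and 98.5 in ΔTAD macrophages. Both edited genotypes lay above wild-type, 1.55-fold and 1.58-fold (2.24e-09 and 9.30e-10), and overlapped each other, with a difference of −0.02 ± 0.057 on the log2 scale (0.758). The study cites earlier work in which C/EBPδ induced TLR4 expression, whereas here Tlr4 was higher in both edited genotypes. The reason was not tested. Over the 9 libraries the members whose log2 CPM ran most like that of Tlr4 were Tlr2 (Pearson's r 0.94), Ticam2 (0.93) and Nfkb2 (0.93), which is a description of libraries that share 3 genotypes.

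The receptors of the endosome, which bind nucleic acids, were higher in 3 of 4 cases in knock-out and in 4 of 4 in ΔTAD macrophages. Of all genes, 22.8% and 26.3% were called higher in these comparisons. Tlr3, the receptor of double-stranded RNA, had the lowest wild-type level of the 43 tested members per length and the largest difference between the edited genotypes. It had 2.29, 2.49 and 2.73 CPM in wild-type, 4.85, 4.96 and 4.14 in knock-out and 10.5, 8.98 and 9.95 in ΔTAD macrophages, so that the genotypes formed 3 separate ranges. Its log2 fold change was 0.90 ± 0.153 for knock-out (adjusted p = 2.14e-05) and 1.97 ± 0.132 for ΔTAD (3.38e-12), and that of knock-out over ΔTAD macrophages was −1.07 ± 0.117 (8.60e-08). Of its exon bases 7.32% lie opposite an antisense gene, Gm45542, and the strand setting of the counting is not given in the sources used here.

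Tlr9, the receptor of unmethylated CpG DNA, had 10.6, 10.7 and 9.81 CPM in wild-type, 19.2, 16.0 and 16.7 in knock-out and 16.6, 17.4 and 18.3 in ΔTAD macrophages. Both edited genotypes exceeded wild-type by a like amount, 1.67-fold and 1.69-fold (adjusted p = 8.51e-08 and 4.99e-08), with ranges that overlapped. Tlr13, the mouse receptor of bacterial ribosomal RNA, had 57.3, 58.5 and 56.4 CPM in wild-type, 74.1, 66.2 and 75.2 in knock-out and 89.6, 81.8 and 82.0 in ΔTAD macrophages. Here the genotypes did not overlap, and the log2 fold changes were 0.33 ± 0.047 and 0.55 ± 0.045 (1.85e-06 and 1.48e-10). Tlr7, which binds single-stranded RNA, was called against wild-type in ΔTAD but not in knock-out macrophages, at 0.19 ± 0.049 (0.00169), and was not without ΔTAD replicate 1 (0.10, 0.0589) or wild-type replicate 1 (0.16, 0.0124). Nor was this call of Tlr7 made with scaling by library size alone (0.1425).

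**Figure D2:**
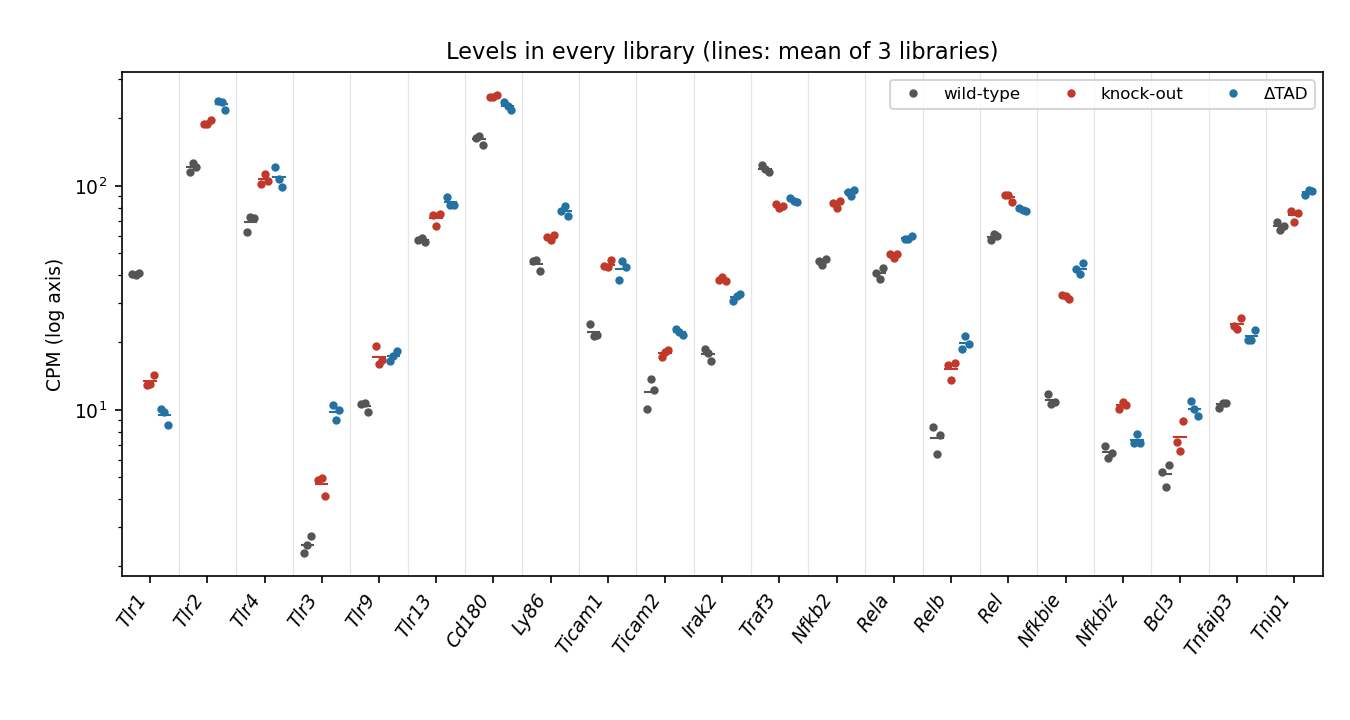
CPM on a log axis in each of the 9 libraries for the 21 members with a call of 0.5 or more on the log2 scale in any comparison, with points for libraries and lines for the mean of 3. Wild-type libraries (grey) lie above both edited genotypes for Tlr1 and Traf3 and below them for the others, except that 1 knock-out library is level with 1 wild-type library for Tnip1, at 68.7 CPM. These members were selected by the size of their calls, which favours such separation. Of all genes, 30.04% lay fully above and 29.7% fully below wild-type in knock-out macrophages. In ΔTAD macrophages 32.36% and 30.72% did.

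Of the 5 co-receptors and chaperones 4 were higher in both edited genotypes, where 17.3% of all genes were. Cd180, a TLR-like receptor without a signalling domain, had 164, 168 and 153 CPM in wild-type, 249, 249 and 255 in knock-out and 237, 228 and 219 in ΔTAD macrophages. Its partner Ly86 (MD-1) had 46.2, 46.7 and 41.5 CPM in wild-type, 58.8, 57.5 and 60.5 in knock-out and 77.0, 81.2 and 73.2 in ΔTAD macrophages. The libraries of the 3 genotypes were separate for both genes but in a different order: Cd180 was highest in knock-out macrophages, with log2 fold changes of 0.64 ± 0.040 and 0.50 ± 0.040 (adjusted p = 1.11e-12 and 1.04e-10), and Ly86 in ΔTAD macrophages, with 0.39 ± 0.049 and 0.78 ± 0.047 (2.09e-07 and 4.14e-13). The difference in Cd180 between the edited genotypes, 0.14, was called at 0.00550 but not when any 1 of 5 libraries was left out, the 3 of knock-out and ΔTAD replicates 2 and 3 (0.0123 to 0.0446). Cd14, which hands lipopolysaccharide to TLR4, was 1.11-fold and 1.25-fold higher, with means of 900.7 CPM for wild-type, 997 for knock-out and 1125 for ΔTAD, and Unc93b1, which brings receptors to the endosome, rose by 0.34 and 0.43 on the log2 scale. Scaled by library size alone, Cd14 was not called in knock-out macrophages against wild-type (0.0766). Ly96, the MD-2 chain that binds lipopolysaccharide on TLR4, had 6.18 to 7.57 CPM in wild-type, 6.80 to 7.54 in knock-out and 7.20 to 9.79 in ΔTAD macrophages and was not called.

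The adaptors of the TRIF branch were higher in both edited genotypes. Ticam1 (TRIF), the adaptor of TLR3 and of endosomal TLR4, had 24.3, 21.4 and 21.5 CPM in wild-type, 43.8, 43.3 and 46.6 in knock-out and 38.2, 46.3 and 43.4 in ΔTAD macrophages. It was 1.98-fold and 1.91-fold higher (adjusted p = 7.77e-12 and 1.86e-11), and the edited genotypes overlapped. Ticam1 lies on chromosome 17, and with the median of each chromosome set to 0 its log2 fold changes of 0.99 and 0.93 were 0.50 and 0.43 (1.17e-06 and 8.30e-06). Ticam2 (TRAM), which links TRIF to TLR4, had 10.1, 13.7 and 12.3 CPM in wild-type, 17.3, 18.2 and 18.5 in knock-out and 22.9, 22.2 and 21.7 in ΔTAD macrophages. These ranges were separate, with log2 fold changes of 0.59 ± 0.090 and 0.89 ± 0.086 (4.53e-06 and 2.53e-09). On the same strand 14.5% of the exon bases of Ticam2 also belong to Tmed7.

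Myd88, the adaptor of the TLRs other than TLR3, had 76.6, 72.8 and 74.8 CPM in wild-type, 59.0, 62.8 and 54.8 in knock-out and 80.4, 82.2 and 84.0 in ΔTAD macrophages. Knock-out libraries lay below and ΔTAD libraries above all wild-type libraries. The decrease in knock-out macrophages, −0.35 ± 0.043 on the log2 scale (adjusted p = 1.88e-07), and the difference between the edited genotypes, −0.48 ± 0.042 (1.75e-09), were called, also in every fit that left out a library. The increase in ΔTAD macrophages was small, 0.14 ± 0.041 (0.00522), and was not called when any 1 of wild-type replicates 2 and 3 or the 3 ΔTAD libraries was left out (0.12 to 0.14, 0.0144 to 0.0302). Of the exon bases of Myd88 11.3% lie opposite Acaa1a. Tirap, which bridges MyD88 to TLR2 and TLR4, had log2 fold changes of 0.02 and 0.10 and was not called (0.835 and 0.177).

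Of the IRAK kinases, which MyD88 recruits, Irak2 differed the most. Irak2, which sustains the signal, had 18.7, 17.9 and 16.6 CPM in wild-type, 38.2, 39.1 and 37.8 in knock-out and 30.5, 32.3 and 33.1 in ΔTAD macrophages. The genotypes were separate, with knock-out macrophages highest, 2.16-fold above wild-type (adjusted p = 1.46e-13), and ΔTAD macrophages 1.80-fold above it (2.66e-11). Irak3 (IRAK-M), an inhibitor of the other IRAKs in macrophages, was 0.31 ± 0.088 and 0.46 ± 0.086 higher on the log2 scale, the first of which was not called without wild-type replicate 1 or 3 or knock-out replicate 1 or 3 (0.0118 to 0.0459). Irak4, the kinase that starts the cascade, and Irak1, its substrate, were called higher in ΔTAD macrophages, by 0.37 and 0.13, with 0.07 and 0.08 in knock-out macrophages. Knock-out lay below ΔTAD macrophages in Irak4 (−0.31, 1.00e-04), whereas the difference in Irak1 was not called (−0.06, 0.215). The call of Irak1 against wild-type was lost without ΔTAD replicate 1 (0.08, 0.111) or wild-type replicate 3 (0.12, 0.0143), and also with DESeq2 or scaling by library size alone.

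Of the ubiquitin ligases, Traf3 was lower in both edited genotypes by about as much as chromosome 12, on which it lies. Traf3, a brake on the alternative NF-κB pathway that also serves TRIF signalling, had 124, 119 and 115 CPM in wild-type, 83.0, 79.7 and 81.6 in knock-out and 88.4, 85.7 and 84.9 in ΔTAD macrophages. Both edited genotypes lay below wild-type, by −0.56 ± 0.035 and −0.47 ± 0.035 on the log2 scale (adjusted p = 1.17e-12 and 1.66e-11). With the median of its chromosome set to 0, Traf3 was at −0.03 in knock-out (0.452) and at 0.07 in ΔTAD macrophages (0.0885), without a call. Traf6, which activates TAK1, was lower by −0.22 ± 0.039 in ΔTAD macrophages (3.39e-05), while −0.11 in knock-out macrophages was not called (0.0191) except without ΔTAD replicate 3 (−0.12, 0.00956).

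Of the TAK1 complex, Tab1 and Tab2 were not called in any comparison and lay between −0.08 and 0.03 on the log2 scale against wild-type. Map3k7 (TAK1) was higher in ΔTAD macrophages by 0.13 (adjusted p = 0.00256) but not without ΔTAD replicate 1 (0.07, 0.135). The call of Map3k7 was also lost with DESeq2, with scaling by library size alone and with chromosome medians set to 0. Of the IKK complex, Ikbkg (NEMO), its regulatory subunit, was higher in both, by 0.25 ± 0.046 and 0.30 ± 0.046. The catalytic subunits were called in opposite directions in ΔTAD macrophages, Ikbkb (IKKβ) higher by 0.13 (0.00130) and Chuk (IKKα) lower, by −0.25 ± 0.043 (2.77e-05). The call of Ikbkb was lost without ΔTAD replicate 1 (0.10, 0.0327), and also with DESeq2, with scaling by library size alone and with chromosome medians set to 0. Ikbke, an IKK-related kinase, was lower in knock-out macrophages by −0.22 (0.00925), a call that was lost whichever of the 6 knock-out or wild-type libraries was left out (0.0125 to 0.0612). Tbk1, its relative in interferon induction, was not called, at 0.08 and 0.00.

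All 5 NF-κB subunits were higher in both edited genotypes, where 17.3% of all genes were. The largest increases were in Relb and Nfkb2, which encode the RelB and p52 chains of the alternative pathway. Relb had 8.38, 6.37 and 7.75 CPM in wild-type, 15.8, 13.7 and 16.3 in knock-out and 18.7, 21.4 and 19.8 in ΔTAD macrophages. Nfkb2 had 46.3, 44.3 and 47.2 CPM in wild-type, 84.0, 79.5 and 86.0 in knock-out and 94.0, 90.6 and 96.0 in ΔTAD macrophages. For both genes the genotypes were separate and in the order wild-type, knock-out, ΔTAD. Relb was 2.03-fold and 2.66-fold higher (adjusted p = 6.55e-09 and 5.88e-12), and Nfkb2 1.81-fold and 2.04-fold (5.25e-15 and 9.07e-17). The difference in Nfkb2 between the edited genotypes, −0.17 on the log2 scale (6.53e-04), was not called without knock-out replicate 2 (−0.13, 0.0111) or ΔTAD replicate 1 (−0.14, 0.0107). Of the exon bases of Nfkb2 11.6% lie opposite the noncoding gene AC114539.1.

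Rel (c-Rel) had 57.4, 61.2 and 59.6 CPM in wild-type, 91.2, 90.8 and 85.1 in knock-out and 79.5, 78.2 and 77.4 in ΔTAD macrophages. It was the only subunit that was higher in knock-out than in ΔTAD macrophages, by 0.18 ± 0.036 on the log2 scale (adjusted p = 2.05e-04), with folds of 1.50 and 1.32 against wild-type. Rela (p65), the activating subunit of the classical dimer, had 41.0, 38.5 and 43.1 CPM in wild-type, 49.7, 47.8 and 49.4 in knock-out and 57.8, 57.8 and 60.0 in ΔTAD macrophages. Its ranges were separate, with log2 fold changes of 0.26 ± 0.048 and 0.52 ± 0.046 (5.17e-05 and 6.72e-10). Nfkb1, which encodes p50 and its precursor, was higher by 0.26 ± 0.039 and 0.47 ± 0.038 (2.56e-06 and 1.47e-10).

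The 3 IκB proteins differed in direction. Nfkbie (IκBε) had 11.7, 10.7 and 10.8 CPM in wild-type, 32.5, 32.1 and 31.1 in knock-out and 42.6, 40.3 and 45.4 in ΔTAD macrophages. These are separate ranges with the largest increase of all members in knock-out macrophages, 2.87-fold (adjusted p = 5.03e-15), and 3.85-fold in ΔTAD macrophages (1.37e-17), where Tlr3 rose 3.91-fold. Nfkbie lies on chromosome 17, and with the chromosome median set to 0 its log2 fold changes of 1.52 and 1.95 became 1.04 and 1.45 (1.13e-11 and 6.82e-15), which in knock-out macrophages is less than Tnfaip3 (1.17) and Irak2 (1.09) under the same setting. Nfkbia (IκBα), the main inhibitor of the classical dimer, had 84.0, 80.2 and 84.6 CPM in wild-type, 59.9, 59.5 and 63.4 in knock-out and 70.0, 71.6 and 78.0 in ΔTAD macrophages. Both edited genotypes lay below wild-type, by −0.44 ± 0.042 and −0.18 ± 0.041 on the log2 scale (1.94e-09 and 6.40e-04). Nfkbia lies on chromosome 12, however, and relative to the median of that chromosome it was at 0.08 in knock-out (0.132) and at 0.37 in ΔTAD macrophages (3.28e-08), so that the direction depends on this setting. Nfkbib (IκBβ) was higher in ΔTAD macrophages, by 0.39 ± 0.066 (1.43e-05), and at −0.07 in knock-out macrophages (0.430), and 14.5% of its exon bases lie opposite Ccer2.

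**Figure D3:**
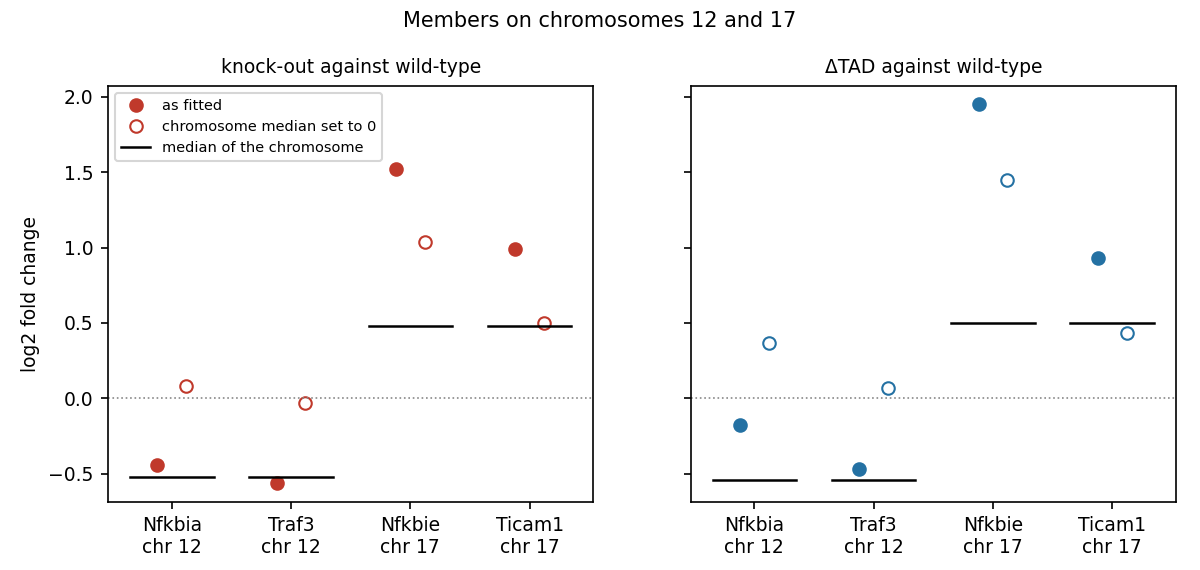
Log2 fold change against wild-type (y axis) of the 4 members on chromosomes 12 and 17 as fitted (filled) and with the median of each chromosome set to 0 (open), with a line at the median of the chromosome, in knock-out (left) and ΔTAD (right) macrophages. Nfkbia and Traf3 lie close to 0 or above it once the median is set to 0, while Nfkbie stays above 1.

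Among the nuclear IκB proteins, Nfkbiz (IκBζ), a coactivator of secondary response genes, had 6.88, 6.08 and 6.42 CPM in wild-type, 10.1, 10.8 and 10.5 in knock-out and 7.14, 7.78 and 7.14 in ΔTAD macrophages. It was 1.62-fold higher in knock-out macrophages (adjusted p = 1.85e-06), while the ΔTAD libraries lay just above those of wild-type without a call (1.14-fold, 0.132), and the difference between the edited genotypes was 0.51 ± 0.096 on the log2 scale (1.46e-04). Bcl3, which binds p50 and p52 dimers, had 5.29, 4.51 and 5.69 CPM in wild-type, 7.17, 6.53 and 8.95 in knock-out and 10.9, 10.1 and 9.42 in ΔTAD macrophages. It was 1.46-fold and 1.95-fold higher (9.35e-04 and 2.94e-07), and the call in knock-out macrophages was lost without knock-out replicate 3 (0.40, 0.0164).

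Of the A20 feedback pair, Tnfaip3 (A20), the ubiquitin-editing enzyme that ends NF-κB activation, had 10.2, 10.8 and 10.8 CPM in wild-type, 23.7, 23.0 and 25.6 in knock-out and 20.5, 20.6 and 22.8 in ΔTAD macrophages. Both edited genotypes lay above wild-type, 2.28-fold and 2.02-fold (adjusted p = 2.58e-12 and 5.69e-11). Its partner Tnip1 (ABIN-1) had 68.7, 63.6 and 66.1 CPM in wild-type, 77.2, 68.7 and 75.5 in knock-out and 91.4, 96.1 and 95.1 in ΔTAD macrophages. The ΔTAD libraries stood clear of the rest, 1.43-fold above wild-type (9.42e-11), while the increase of 1.12-fold in knock-out macrophages (0.00269) was not called without wild-type replicate 2 or knock-out replicate 1 or 3 (0.0172 to 0.0232). Scaling by library size alone also lost this call in knock-out macrophages (0.0480).

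To compare the edited genotypes directly, knock-out was tested against ΔTAD macrophages. Of the 43 members 6 were higher and 18 were lower in knock-out macrophages, where 13.9% of all genes were called higher, 19.1% lower and 33.0% in either direction. Scaled by library size alone, 6 members were higher and 10 lower, and over all genes the split of 1990 higher and 2740 lower became 2281 and 1024. Such scaling keeps the many counts of ΔTAD replicate 1 on CT010467.1 in the total of that library, and the part of these counts was not tested. The median log2 fold change was −0.15 for the members and −0.03 for all genes. A call of 0.5 or more on the log2 scale in either direction was made for 3 members, 6.98% of those tested, against 9.31% of all genes, and these were Tlr3 at −1.07, Tlr1 at 0.51 and Nfkbiz at 0.51. The other members higher in knock-out macrophages were Cd180, Irak2, Chuk and Rel. Lower in knock-out macrophages were 4 of the 5 NF-κB subunits, the 3 IκB proteins and 3 of the 4 tested endosomal receptors. Scaled by library size alone, Nfkb1, Nfkb2, Rela and Tlr13 lost this call (0.0258 to 0.231), which left Relb among the subunits. Without ΔTAD replicate 1, Nfkb2, Ticam2 and Bcl3 were no longer called lower (0.0107 to 0.0254), Traf6 was called higher (0.16, 0.00570), and 15 members were called lower in all. Over all genes the split without that library was 2293 higher and 2274 lower. Ticam2 and Bcl3 were not called without knock-out replicate 1 or 2 either, nor Bcl3 without ΔTAD replicate 2 (0.0114 to 0.0418).

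**Figure D4:**
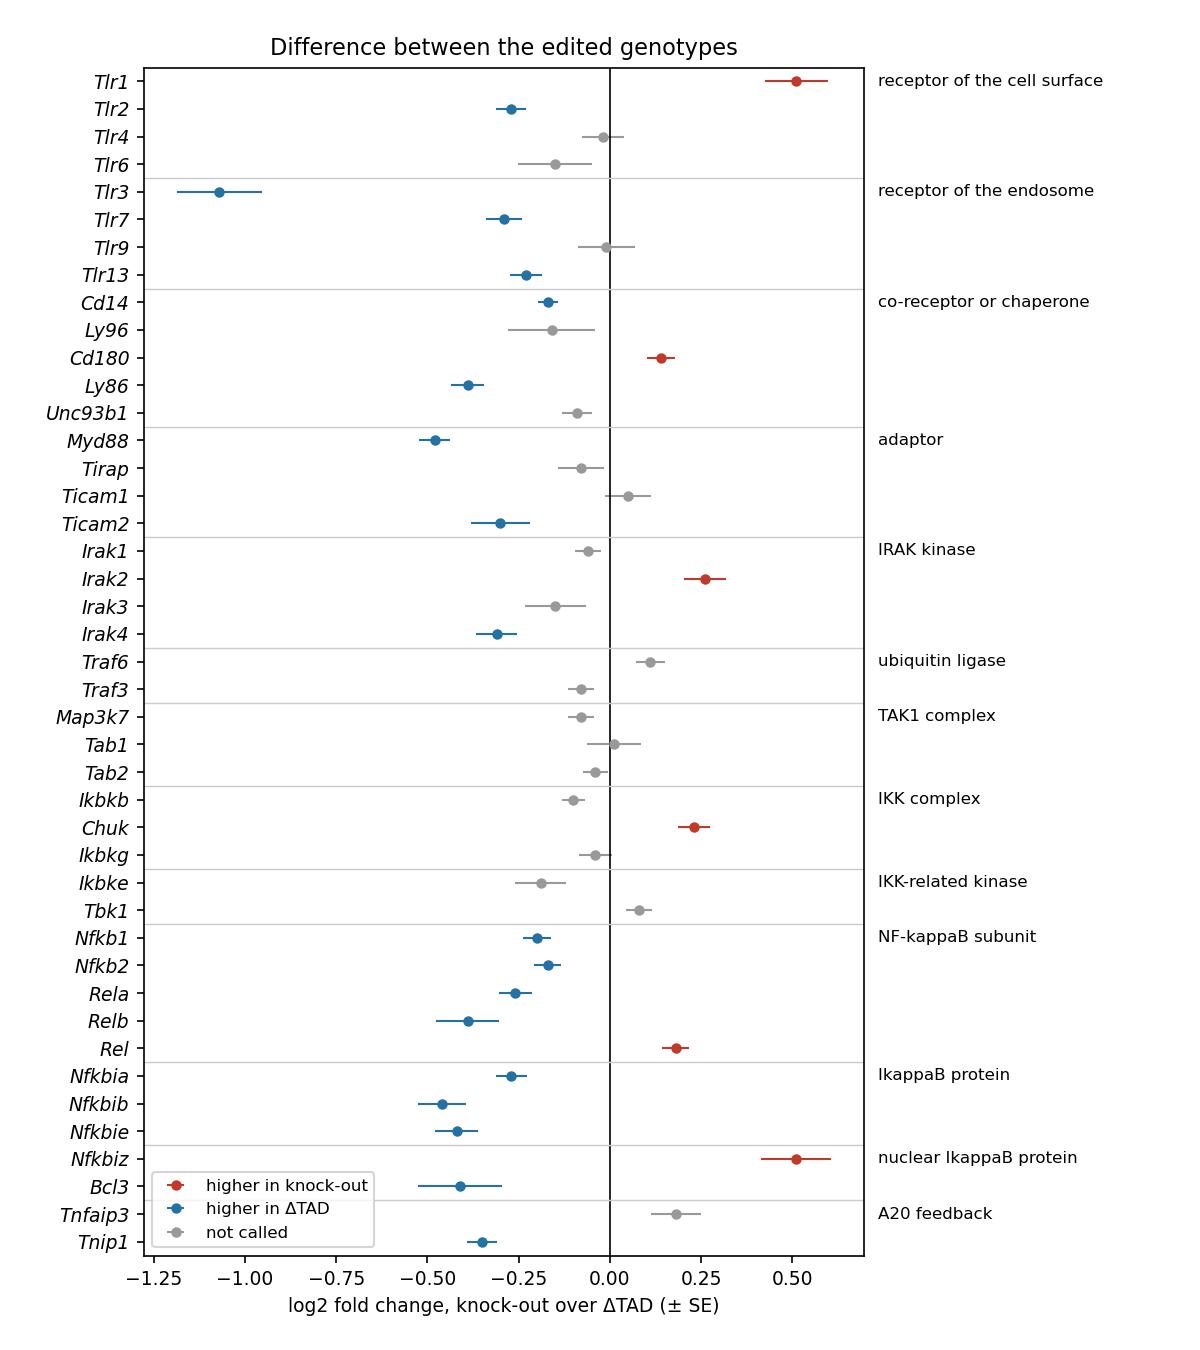
Log2 fold change of knock-out over ΔTAD macrophages (x axis, ± SE) for the 43 tested members by role, in red where knock-out and in blue where ΔTAD macrophages were higher at an adjusted p-value under 0.01. Blue points outnumber red ones by 18 to 6, and Tlr3 at −1.07 is the farthest from 0.

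Per kilobase of exon, Cd14 had by far the highest level of the members in wild-type macrophages, 520 ± 11.5 CPM per kilobase (SD, n = 3). Next came Nfkbia at 51.5 ± 1.50, Tlr2 at 40.2 ± 1.85, Cd180 at 35.8 ± 1.72 and Unc93b1 at 34.6 ± 2.65, of which Cd180 and Unc93b1 overlapped in their libraries. Tab2 and Tlr7 overlapped in the same way at 23.8 and 23.7. Tlr13, Rela, Tlr4, Ly86 and Tlr1 lay within 12.1 to 13.3, each overlapping its neighbour in that order. At the lower end stood Tnfaip3 at 1.47 ± 0.044, Nfkbiz at 1.29 ± 0.080, Tlr3 at 0.481 ± 0.042 and Tlr8 at 0.00538. The order shifted most visibly for Tlr1, which held place 19 of 44 in wild-type but 35 and 40 in the edited genotypes, and for Nfkbie, which went from place 34 to 23 and 19.

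**Figure D5:**
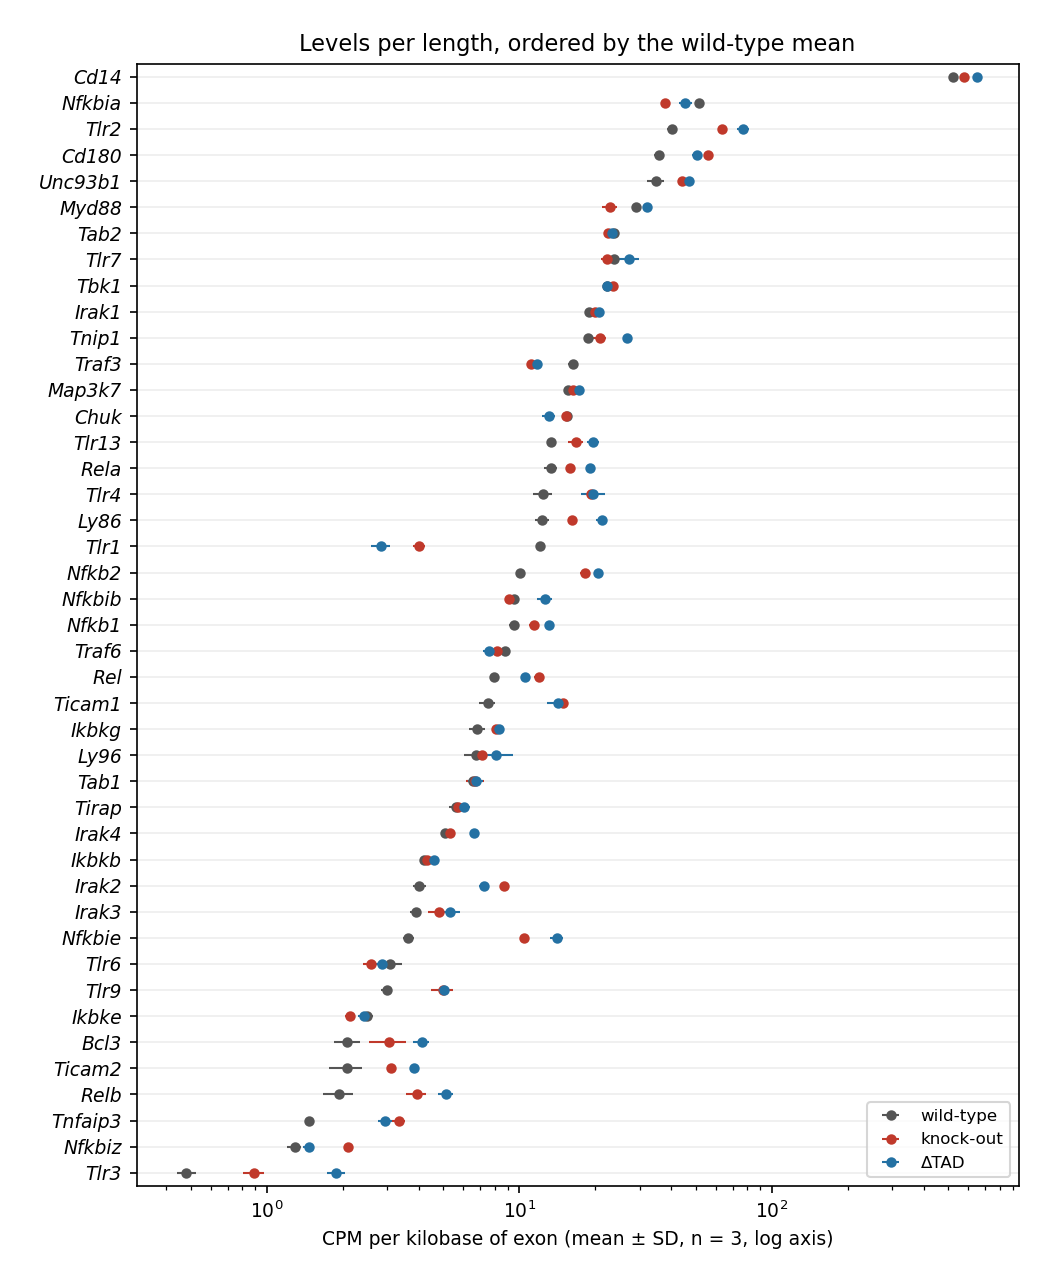
Level per kilobase of exon (x axis, log scale, mean ± SD, n = 3) of the 43 tested members in the order of the wild-type mean, for wild-type (grey), knock-out (red) and ΔTAD (blue) macrophages. Cd14 lies far to the right at 520 in wild-type and 649.7 in ΔTAD macrophages, and the points of Tlr1 and Nfkbie are wide apart.

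The wider pathway was described with a list of 60 other genes, of which 51 were tested. In knock-out macrophages 24 of them were higher and 14 lower, where 22.8% of all genes were called higher and 22.4% lower. In ΔTAD macrophages 20 were higher and 8 lower, where 26.3% and 23.4% of all genes were. The medians of the list were 0.15 and 0.12 on the log2 scale. Sigirr, an inhibitory receptor of this family, fell from 9.32 to 1.31 and 0.902 CPM, −2.82 ± 0.161 and −3.35 ± 0.172 (adjusted p = 1.71e-13 and 1.77e-14). Sarm1, the fifth adaptor with a TIR domain, was at −2.68 and −1.99, Il18rap and Il1rap, accessory chains of the IL-18 and IL-1 receptors, at −2.09 and −1.93 and at −2.00 and −1.48, and Scimp, a TLR adaptor of the membrane, at −2.08 and −2.36. Sarm1 and Scimp were low, with means of 0.635 and 0.405 CPM in knock-out and 1.05 and 0.347 in ΔTAD macrophages. Higher were Tnip3, a relative of Tnip1, at 1.45 and 2.2, and Ctss, the protease that cleaves endosomal TLRs, at 1.06 and 1.07, and in knock-out macrophages Irf7, an interferon regulator, at 1.42, and Usp18, an ISG15 protease, at 1.72. Usp18 was low, with means of 0.624 CPM in wild-type and 2.1 in knock-out macrophages. Knock-out macrophages had 8 of the tested genes of this list higher and 14 lower than ΔTAD macrophages, where 13.9% and 19.1% of all genes were.

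Of 34 genes known as targets of NF-κB in macrophages 22 were tested. In knock-out macrophages 10 were higher and 7 lower, where 22.8% of all genes were called higher and 22.4% lower. In ΔTAD macrophages 6 were higher and 11 lower, where 26.3% and 23.4% of all genes were. The medians of the list were 0.07 and −0.16 on the log2 scale. Ccl2, a monocyte chemokine, was at −5.59 and −6.16 in knock-out and ΔTAD macrophages, and Ptgs2 (COX-2) at −4.42 and −5.73, while Socs3 was at −1.43 and −1.58. In the edited genotypes Ccl2 fell to 0.727 and 0.475 CPM and Ptgs2 to 0.987 and 0.365. The study cites earlier work in which C/EBPδ itself regulated COX-2 and enhanced MCP-1, the product of Ccl2. Its own measurements after lipopolysaccharide found less MCP-1 protein in knock-out and ΔTAD macrophages than in wild-type. Whether NF-κB, C/EBPδ or both lie behind the differences in Ccl2, Ptgs2 and Socs3 was not tested. In ΔTAD macrophages the chemokine genes Ccl3 and Cxcl2 were at −1.88 and −1.58 on the log2 scale, and Birc3, an inhibitor of apoptosis, went from 15.7 to 31.3 CPM. Knock-out macrophages had Ccl3 at −0.25, Cxcl2 in the other direction at 0.41, and Birc3 at 0.59, all of them called. Saa3 went from 2.52 CPM in wild-type to 1.27 in knock-out and 1.11 in ΔTAD macrophages, called lower in both. In knock-out macrophages Ccl5 was at 1.37 and Cxcl10 at 1.32 on the log2 scale. Their values of −0.16 and 0.37 in ΔTAD macrophages were not called. Ccl5 and Cxcl10 were low in wild-type macrophages, with means of 0.776 ± 0.427 (SD) and 0.685 ± 0.074 CPM. Cd40, a costimulatory receptor, was higher in both at 1.52, and so was Dusp1, a phosphatase gene of chromosome 17, at 1.78 and 1.56. Tnf, Sod2 and Ier3 also lie on chromosome 17, whose medians were 0.48 and 0.50. Tnf was at 0.87 and 0.38, Sod2 at 0.45 and 0.58 and Ier3 at −0.79 and −0.91. Knock-out exceeded ΔTAD macrophages in 9 of the tested genes of this list and was lower in 3, where 13.9% and 19.1% of all genes were. Il1b, Il6, Il10, Il12b and Nos2 were among the 12 that did not pass the filter on low counts in these unstimulated cells.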

How the data were processed

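Total RNA of 9 cultures was depleted of ribosomal RNA and sequenced as single reads of 50 bases. Per the study's methods the authors ran FastQC and Trimmomatic on the reads, used Hisat2 to align them to GRCm38 and HTSeq to count them per Ensembl gene, and the counts were deposited as whole numbers, without normalization. The counting mode and strand setting are not given in the sources used here. The 5 tally lines of each library were left out, and 46.65% to 53.23% of records lay on genes.

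The test was that of edgeR 4.0.16 under R 4.3.3. Its filterByExpr (minimum count 10, minimum total count 15) left 14312 genes, libraries were scaled by TMM (factors 0.888 to 1.03), and 1 quasi-likelihood model with a mean per genotype was fitted to all 9 libraries. All 3 contrasts were tested, and adjusted p-values under 0.01, the study's threshold, were called. The study's test is not named, so this one was used instead. Against wild-type it called 3262 genes higher and 3206 lower in knock-out and 3765 and 3350 in ΔTAD macrophages. These are more in each direction than the study reports, so the calls are not those of the study. A standard error is the fitted log2 fold change over the root of F. CPM are counts scaled by TMM to a total of 1000000, and exon lengths are from GENCODE. With 3 libraries a group, leaving 6 residual degrees of freedom, small differences rest on the common spread (coefficient of variation 0.0468). On counts simulated for knock-out against wild-type with 199 of 14103 genes changed by 1 on the log2 scale, 179 were called, 0 in the wrong direction, with 4 false calls. The simulation gave all genes the same spread, changed far fewer genes than were called in the data, and held no chromosome shift or odd library. Its figures therefore need not carry over to these data.

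The members and lists were chosen with earlier results of these data known. All members are named. Every library is given for those with a call of 0.5 or more on the log2 scale in any comparison, for Nfkbia and Myd88, which were added after their values were seen, and of the other lists those called with at least 1 against wild-type, at most 5 in each direction. Alternatives included limma-voom (limma 3.58.1) and DESeq2 1.42.0, other scalings, filters and thresholds, fits of 2 genotypes, a replicate block, chromosome medians set to 0, and leaving out each library.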

Additional observations from a re-analysis of the deposited data

Results flagged for a closer look

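Myd88 was called in opposite directions in the edited genotypes, lower in knock-out and higher in ΔTAD macrophages, and the test of the difference between them gave −0.48 ± 0.042 on the log2 scale (edgeR adjusted p = 1.75e-09). The difference was called under all 18 alternatives that kept the threshold (−0.53 to −0.41), though it is smaller than the fold of the stricter threshold, whereas the increase in ΔTAD macrophages was not called under 8 of them.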

How the results depend on the processing

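Of 88 calls over the members and 3 comparisons, 65 were made under all 18 alternatives that kept the threshold, and of 41 differences without a call 36 stayed so. Where calls also had to reach 1 on the log2 scale, knock-out macrophages had 4 members higher and 1 lower than wild-type, ΔTAD macrophages 5 and 1, and knock-out against ΔTAD macrophages 0 and 1, where 7.66%, 9.31% and 3.93% of all genes were called in these 3 comparisons. With chromosome medians set to 0, 3 members were lower in each edited genotype, and 3 values turned sign, Traf3 in ΔTAD (0.07) and Nfkbia in knock-out (0.08) and ΔTAD macrophages (0.37), which follows from the median of chromosome 12. Scaled by library size alone, 10 members were lower in knock-out than in ΔTAD macrophages, and the share of higher among called genes moved from 52.9% to 39.6% in ΔTAD against wild-type and from 42.1% to 69.0% in knock-out against ΔTAD macrophages. With TMM but without ΔTAD replicate 1, these shares were 48.5% and 50.2%. Leaving out 1 library gave 21 to 24 members higher and 4 to 6 lower in knock-out, 25 to 30 and 5 in ΔTAD, and 5 to 7 and 15 to 18 in knock-out against ΔTAD macrophages. A replicate block gave the same counts, 24 and 5, 30 and 5, and 6 and 18, and changed no call. The labels tie same-numbered libraries by nothing but the number. Their deviations correlated between −0.099 and 0.079, and those of differently numbered libraries between −0.114 and 0.168. With 3 libraries a group, this check cannot tell whether the numbers mark a shared batch. Depth limits Tlr8, for which no difference was detectable.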
